A study of Mus musculus with 12 samples.

Results

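A set of 42 genes encoding collagens and other components of the extracellular matrix was chosen by symbol and followed in mouse lungs with and without Nfkb1, in filtered air and after ozone (O3). Each gene was represented by the probe set annotated with its symbol alone, and where several qualified, by the one with the highest mean log2 signal over the 12 arrays. This gave values for 40 of the 42 genes, out of 17569 genes tested on the same arrays. Of the other two, Fbn1 is not analysed here, and both probe sets of Loxl2 carried a second symbol and were kept out of the counts.

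Total RNA from the left lung of 1 mouse per array was hybridised to Affymetrix Mouse Genome arrays in 4 groups of 3. Male mice, 6 to 8 weeks old, were either wild-type (WT, Nfkb1+/+, the B6129PF2/J stock) or homozygous for a targeted allele that removes the p50/p105 subunit of NF-κB from every cell (Nfkb1-/-, the Nfkb1tm1Bal allele). Mice of both genotypes breathed either filtered air (the groups labelled WT-Air and Nfkb1KO-Air) or 0.3 ppm O3 without interruption for 48 h (WT-O3 and Nfkb1KO-O3). Because WT mice came from a separate stock and O3 was given in a separate chamber, genotype cannot be told apart from stock, nor O3 from chamber. Values below are log2 signals after quantile normalisation, a difference of 1 being a 2-fold change, and errors of differences are standard errors of the model with n = 3 arrays per group.

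The extracellular matrix of the lung is a scaffold laid down mainly by fibroblasts, with smooth muscle, endothelial and epithelial cells adding to it. Fibrillar collagens give it tensile strength, elastic fibres give it recoil, basement membranes of type IV collagen and laminin carry the epithelium and the capillaries, and matricellular proteins such as tenascin C are secreted for a time at sites of injury to change how cells attach. Its genes are among the known targets of transforming growth factor beta, and NF-κB is better known for inflammatory genes than for structural ones. In whole lung homogenate, fewer cells of a type and less RNA per cell cannot be told apart.

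A pair of arrays stood apart from the rest. Nfkb1KO-Air replicate 1 had a median deposited signal of 180, against 99.1 to 121 on the other 11 arrays, and a median Spearman correlation of 0.92 with the others, against 0.95 to 0.96. WT-Air replicate 3 carried the highest summed signal of skeletal muscle markers, 31790 against 1245 and 5539 in its group. Of the 40 matrix genes, 28 were lowest on Nfkb1KO-Air replicate 1 among the 3 arrays of that group, and 29 were lowest on Nfkb1KO-O3 replicate 2 in its own. Nfkb1KO-O3 replicate 2 also carried the highest summed signals of its group for skeletal muscle (8411) and cardiac muscle markers (87903). The highest cardiac sum in WT-Air was 87493. Nfkb1KO-O3 replicate 2 is not counted in the pair that stood apart. Spike-in and RNA quality readings also moved with O3. The log2 signal of added poly-A controls was 8.74 to 9.44 on O3 arrays and 9.42 to 9.98 on air arrays, and the log2 difference between the 3' and 5' probe sets of Gapdh was -0.55 to -0.37 on O3 arrays and -0.36 to -0.10 on air arrays. The part of these readings in the results below was not tested. The lung label was borne out by its markers: all 9 lung epithelial markers were measured above the lower limit on some array of every group, with summed signals of 132105 to 157258 per array. No probe set was named for Nfkb1, so the genotype labels were not checked against the deleted gene.

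Most matrix genes that changed with O3 fell, and the few that rose were led by tenascin C. Averaged over both genotypes, 13 of the 40 genes fell and 4 rose (limma, adjusted p under 0.05 over all 17569 genes). That was a share of 42.5% beside 15.2% of all genes tested, which divided into 7.51% lower and 7.70% higher. The genes were chosen with earlier results of these data known, and the part of that choice in this share was not tested. Fbln1, Sbspon, Thbs3, Col14a1 and Mfap5 fell and Tnc rose in each genotype taken alone. The median log2 difference of the 40 genes was -0.23, beside -0.02 over all genes, and 31 of the 40 lay below 0, beside 52.8% of all genes. In WT lungs alone 2 of the 40 rose and 6 fell, beside 5.40% of all genes (3.16% higher and 2.24% lower), 16 had an unadjusted p under 0.05 (19.7% of all genes) and 27 lay below 0 (53.5% of all genes). In Nfkb1-/- lungs alone 1 of the 40 rose and 9 fell, beside 6.18% of all genes (3.35% higher and 2.83% lower), 19 had an unadjusted p under 0.05 (21.5% of all genes) and 32 lay below 0 (51.4% of all genes). Each genotype was compared with its own air group, and the same 6 genes were called in both. The remaining 23 genes were called in none of the 6 comparisons made.

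The sign of the gene set as a whole depended on the scaling of the arrays, while that of the called genes did not. With arrays centred on their medians in place of quantile normalisation, the median averaged difference of the 40 genes was 0.01 beside 0.13 over all genes, 20 of the 40 lay below 0, and 26 lay below the median of all genes, with 2 genes called higher and 5 lower. In Nfkb1-/- lungs the median was then 0.18 beside 0.25, with 1 gene higher and 2 lower, and in WT lungs 1 gene was higher and 2 were lower. The methods' t-test after Benjamini-Hochberg called 0 of the 40 genes in either genotype, and 5 and 1 of all genes, while at an unadjusted p under 0.05 it gave 2 higher and 9 lower of the 40 in WT and 3 higher and 10 lower in Nfkb1-/- lungs. It is left out of the losses named below. With the deposited scaling alone the averaged median was -0.21 beside -0.10, and 30 of 40 lay below 0.

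**Figure D1:**
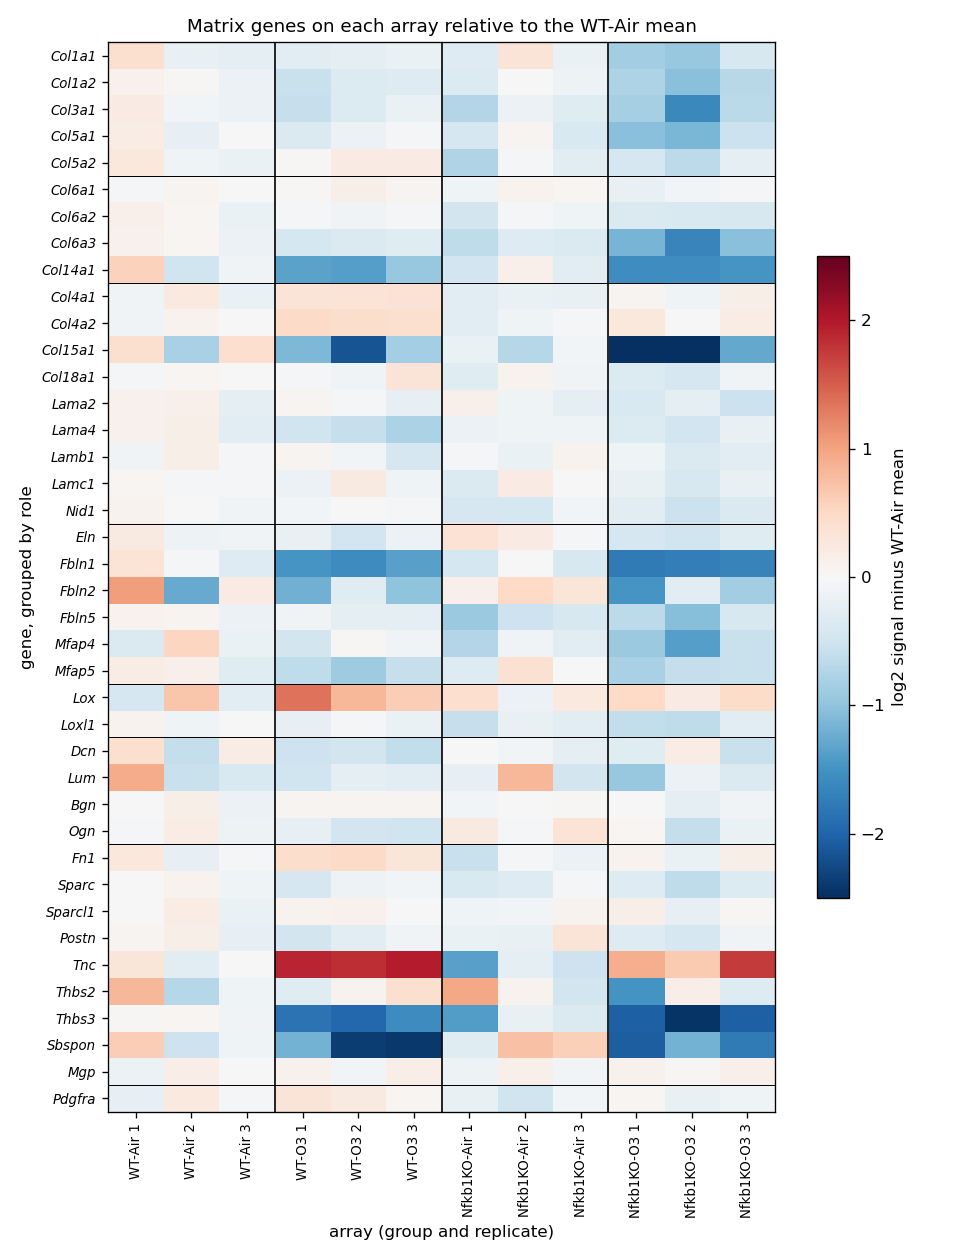
Log2 signal of the 40 measured matrix genes on each of the 12 arrays minus the mean of the 3 WT-Air arrays, with genes in rows grouped by role and arrays in columns by group (blue lower, red higher; values beyond 2.5 in size take the end colour). Tnc is red on all O3 arrays, and Col14a1, Col15a1, Fbln1, Thbs3 and Sbspon are blue on them.

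RefSeq promoter sequences (GRCm38.p6) were at hand for 24 of the 40 genes, among them 3 of the 6 genes called in both genotypes. Their 250 bases before the first start are printed so that the DNA upstream of the gene that rose, Tnc, can be set beside that of Fbln1 and Thbs3, which fell. The Tnc window lies at chr4:64047016-64047265 on the minus strand, inside the span of the long non-coding RNA gene 8030451A03Rik, that of Fbln1 at chr15:85205699-85205948 and that of Thbs3 at chr3:89214930-89215179, both on the plus strand. Capitals mark matches to a TATA box (TATAAA) or a CCAAT box (CCAAT) on either strand, and no letter belongs to more than 1 match.
Tnc: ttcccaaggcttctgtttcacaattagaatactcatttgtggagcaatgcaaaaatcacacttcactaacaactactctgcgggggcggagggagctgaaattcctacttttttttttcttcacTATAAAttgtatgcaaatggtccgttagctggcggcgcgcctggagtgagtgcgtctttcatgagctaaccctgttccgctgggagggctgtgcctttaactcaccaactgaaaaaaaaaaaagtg
Fbln1: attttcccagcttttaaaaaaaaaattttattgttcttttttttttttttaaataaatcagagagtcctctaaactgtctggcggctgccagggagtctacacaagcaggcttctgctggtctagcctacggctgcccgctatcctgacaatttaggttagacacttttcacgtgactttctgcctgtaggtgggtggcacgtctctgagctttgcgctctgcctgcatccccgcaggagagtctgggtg
Thbs3: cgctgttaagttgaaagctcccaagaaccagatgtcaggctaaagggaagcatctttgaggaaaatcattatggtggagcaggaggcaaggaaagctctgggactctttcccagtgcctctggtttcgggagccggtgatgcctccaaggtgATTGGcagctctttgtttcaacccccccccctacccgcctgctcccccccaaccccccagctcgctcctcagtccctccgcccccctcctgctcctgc
The Tnc window held TATAAA at bases -126 to -121 from the start, on its own strand. The Thbs3 window held CCAAT on the opposite strand at bases -98 to -94, and the Fbln1 window matched neither motif. Among all 32851 windows of this length, 12.4% held TATAAA and 33.8% held CCAAT. Those windows count every listed start of a gene, whereas each matrix gene stands with its farthest upstream start alone. Tnc and Fbln1 have 2 starts listed and Thbs3 has 1. Of the 24 matrix gene windows, 4 held TATAAA (Col3a1, Ogn, Tnc and Thbs2) and 9 held CCAAT. The AP-1 motif TGANTCA lay in 1 window, that of Col6a1, and in 6.75% of all windows. The NF-κB consensus motif lay in 3, those of Col6a2, Col4a2 and Thbs2, and in 7.25% of all windows. These are letter matches in a short window and not binding sites.

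Of the 5 fibrillar collagens, which form the tension-bearing fibres of the lung, 3 fell with O3. They were Col1a2, Col3a1 and Col5a1, called in the average over genotypes, while Col1a1 and Col5a2 did not pass the test. Col1a2 encodes the second chain of type I collagen. Its log2 signals in WT lungs were 13.32, 13.23 and 13.07 in air and 12.65, 12.87 and 12.88 after O3. The Nfkb1-/- signals were 12.86, 13.19 and 13.08 in air and 12.44, 12.17 and 12.52 after O3. The air and O3 arrays did not overlap in either genotype, and the lowest arrays were those of Nfkb1-/- mice after O3. The fall was 1.59-fold in Nfkb1-/- lungs (log2 difference -0.67 ± 0.12, adjusted p = 0.00636), while the difference in WT lungs was -0.41 ± 0.12 (adjusted p = 0.0617). Averaged over genotypes it fell by 0.54 ± 0.08 on the log2 scale (adjusted p = 0.00102). Both calls were lost with arrays centred on their medians (-0.20 in Nfkb1-/- lungs and -0.27 averaged) and with the mean of its probe sets (-0.45 and -0.35), and the first also with centring and Nfkb1KO-Air replicate 1 left out (-0.58).

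Col3a1, the type III collagen of compliant tissue, and Col5a1, a minor collagen that sets fibril diameter, fell in the average by 0.50 ± 0.15 (adjusted p = 0.0444) and 0.43 ± 0.13 (adjusted p = 0.042). Leaving out 1 array at a time kept the call of Col3a1 in 2 of 12 cases, with differences of -0.59 to -0.36, and that of Col5a1 in 4 of 12, with differences of -0.52 to -0.35. Both were also lost with centring on medians (-0.27 and -0.22, or -0.49 and -0.38 with Nfkb1KO-Air replicate 1 left out) and without a trend in the spread. The methods' 2-way analysis of variance after Benjamini-Hochberg called neither (adjusted p = 0.125 and 0.0958). Col3a1 was lost with the deposited scaling alone (-0.49), and Col5a1 with the mean of its probe sets (-0.39) or without both arrays that stand apart (-0.47). Another probe set of Col5a1 was called lower in Nfkb1-/- lungs (-0.76 ± 0.14, adjusted p = 0.013) and in the average (-0.37 ± 0.10, adjusted p = 0.0336). In WT lungs that probe set gave 0.01 ± 0.14 (adjusted p = 0.981). Col1a1, the partner chain of Col1a2, had an averaged difference of -0.45 ± 0.14 (adjusted p = 0.0528). Its second probe set, in a fit over all probe sets, was called lower in Nfkb1-/- lungs (-0.90 ± 0.14, adjusted p = 0.00514). In WT lungs that second probe set gave -0.11 ± 0.14 (adjusted p = 0.796). The second probe set of Col1a2 was not called (averaged difference -0.35 ± 0.13, adjusted p = 0.11). Col5a2 had an averaged difference of 0.03 ± 0.12, unlike the other fibrillar chains in sign.

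Among the network and fibril-associated collagens, Col14a1 and Col6a3 fell and Col6a1 and Col6a2 did not pass the test. Col14a1 encodes a collagen that sits on the surface of fibrils and joins them to neighbours. In WT lungs it gave 11.08, 9.999 and 10.41 in air and 9.16, 9.12 and 9.54 after O3. The Nfkb1-/- values were 10.01, 10.63 and 10.24 in air and 8.95, 8.94 and 9.01 after O3. Every O3 array lay below every air array. Col14a1 was 2.33-fold lower with O3 in WT lungs (-1.22 ± 0.23, adjusted p = 0.0111) and 2.51-fold lower in Nfkb1-/- lungs (-1.33 ± 0.23, adjusted p = 0.00704). The WT call was lost without WT-O3 replicate 2 (-1.14, adjusted p = 0.0594), and a second probe set was lower with no call (-0.64 ± 0.20 averaged, adjusted p = 0.0557). Centring on medians ended both calls of Col14a1 (-1.16 and -0.97), the mean of its probe sets ended the second (-0.82), and the averaged call was kept under each alternative.

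The 3 chains of type VI collagen, which build a beaded network around cells, did not give like values. Col6a3 gave 12.03, 11.99 and 11.78 in WT-Air and 11.49, 11.58 and 11.64 in WT-O3 arrays. Its values in Nfkb1-/- lungs were 11.31, 11.61 and 11.57 in air and 10.77, 10.28 and 10.89 after O3. The 4 groups stepped down in the order WT-Air, WT-O3, Nfkb1KO-Air and Nfkb1KO-O3, of which only the middle pair overlapped. The fall with O3 was 1.80-fold in Nfkb1-/- lungs (-0.85 ± 0.14, adjusted p = 0.00579), beside a difference of -0.36 ± 0.14 in WT lungs (adjusted p = 0.173). Centring on medians ended this call (-0.41, adjusted p = 0.384) and that of the averaged fall (-0.61 ± 0.10, with -0.35 when centred). For Col6a1 and Col6a2 the averaged differences were -0.01 ± 0.06 and -0.11 ± 0.08, and a second probe set of Col6a2 was called lower (-0.29 ± 0.07, adjusted p = 0.0216).

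**Figure D2:**
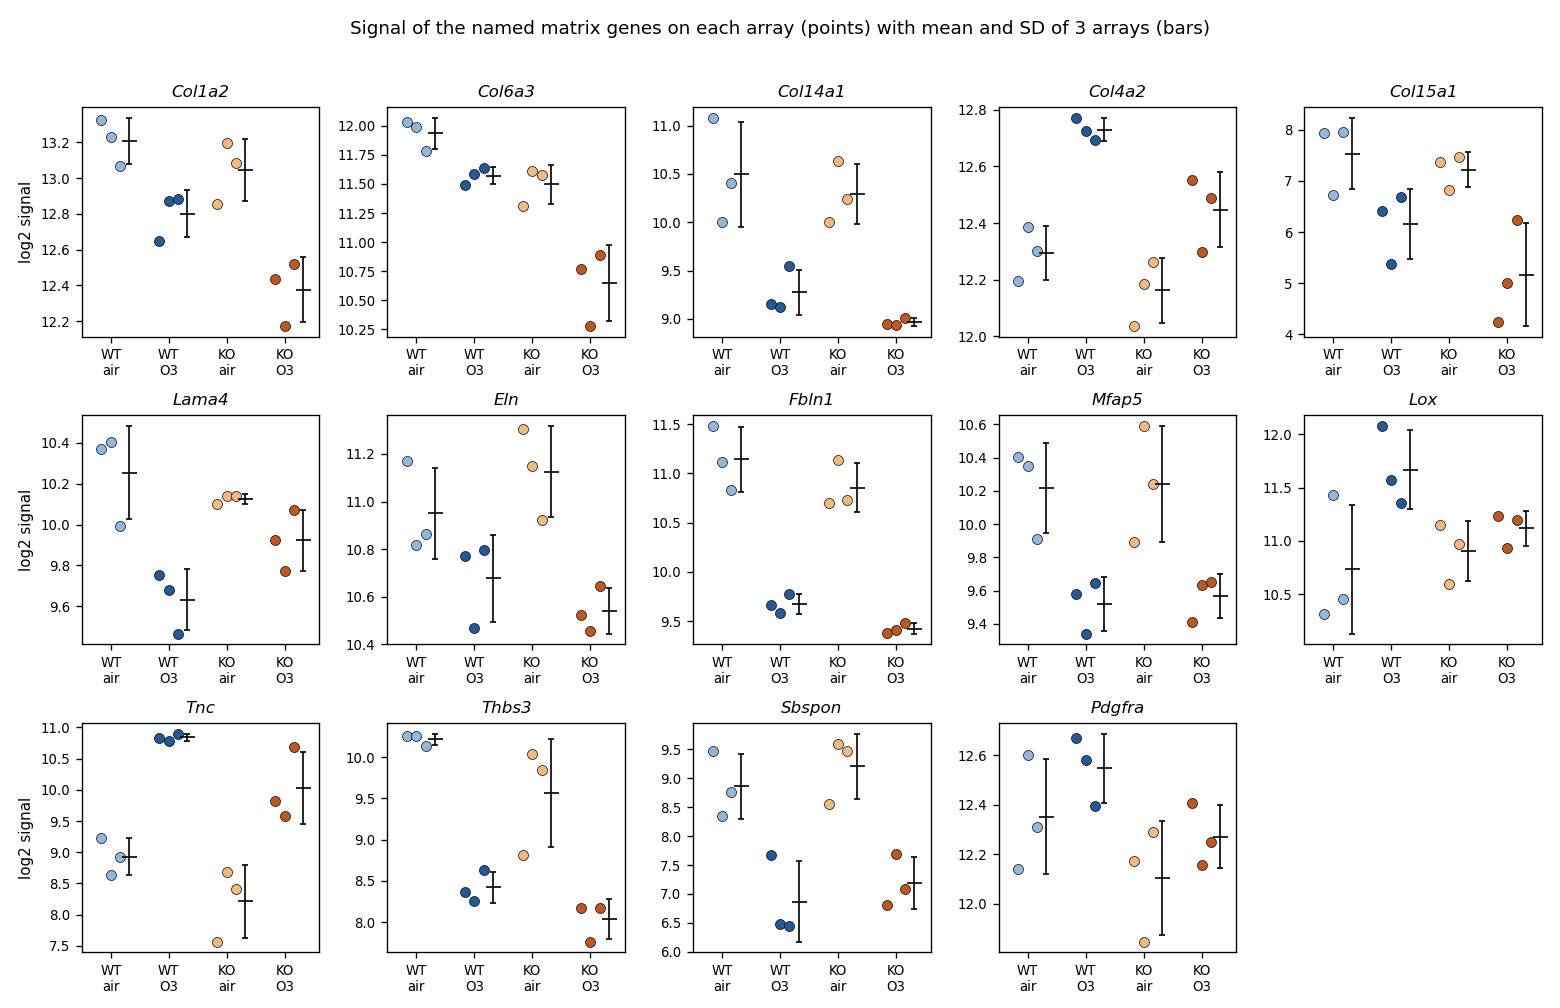
Log2 signal (vertical axes, each with its own range) of 14 matrix genes on the 12 arrays, in WT and Nfkb1-/- (KO) lungs in air and after O3; points are arrays, and the bar beside them is the mean with the SD of 3 arrays. Tnc is the panel in which all O3 arrays, from 9.58 to 10.90, lie above all air arrays. In Fbln1, Col14a1, Thbs3, Sbspon, Mfap5, Eln and Col15a1 all O3 arrays lie below all air arrays.

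Basement membrane genes went both ways: type IV collagen rose while Col15a1 and Lama4 fell, and Col18a1, Lama2, Lamb1, Lamc1 and Nid1 did not pass the test. Col4a1 and Col4a2 encode the chains of the common type IV collagen network and lie head to head on the same chromosome. Col4a2 gave 12.20, 12.38 and 12.30 in WT-Air and 12.77, 12.73 and 12.69 in WT-O3 arrays. Those of Nfkb1-/- lungs were 12.04, 12.19 and 12.26 in air and 12.55, 12.30 and 12.49 after O3. All O3 arrays exceeded the air arrays of the same genotype. Its rise was 1.35-fold in WT lungs (0.44 ± 0.09, adjusted p = 0.0142), with 0.28 ± 0.09 in Nfkb1-/- lungs (adjusted p = 0.0752). That WT call was lost without WT-Air replicate 1 (0.39), WT-O3 replicate 1 (0.41) or WT-O3 replicate 2 (0.44). Averaged over genotypes, Col4a2 rose by 0.36 ± 0.06 (adjusted p = 0.00223) and Col4a1 by 0.29 ± 0.07 (adjusted p = 0.0162), although a second probe set of Col4a1 gave -0.07 ± 0.13. With arrays centred on their medians, Col4a2 was not called in WT lungs (0.50) or in the average (0.63, adjusted p = 0.052), nor Col4a1 in the average (0.56). Col4a1 was also lost with the mean of its probe sets (0.11), without a trend in the spread and without both arrays that stand apart (0.24), and Col4a2 in WT lungs without a trend.

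Col15a1, a collagen of the zone between basement membranes and the fibrils beneath them, had the lowest signals of the called genes and the widest spread. It gave 7.93, 6.73 and 7.94 in WT-Air and 6.41, 5.38 and 6.69 in WT-O3 arrays. Nfkb1-/- lungs gave 7.37, 6.82 and 7.46 in air and 4.25, 5.01 and 6.24 after O3. All O3 arrays were below the air arrays of their genotype, and Nfkb1KO-O3 replicate 1 was under 4.37, the 20th percentile of an array. With that array raised to 4.37, Col15a1 was at least 4.03-fold lower with O3 in Nfkb1-/- lungs (fitted difference -2.05 ± 0.52, adjusted p = 0.0374). The difference in WT lungs was -1.37 ± 0.52 (adjusted p = 0.161), and the averaged fall was 1.71 ± 0.37 on the log2 scale (adjusted p = 0.00814). The Nfkb1-/- call did not outlast the loss of WT-O3 replicate 1 (-2.04), Nfkb1KO-Air replicate 1 (-2.01) or 3 (-1.93), or Nfkb1KO-O3 replicate 1 (-1.58) or 2 (-1.97), whereas the averaged call was kept without any 1 array. The Nfkb1-/- call was lost too without a trend in the spread, with the groups compared alone, without both arrays that stand apart (-2.02), and with centring and Nfkb1KO-Air replicate 1 left out (-2.01).

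Lama4 encodes the laminin alpha chain of vessels. Its signals were 10.37, 10.40 and 9.99 in WT-Air and 9.75, 9.68 and 9.46 in WT-O3 arrays. Nfkb1-/- lungs had 10.10, 10.14 and 10.14 in air and 9.92, 9.77 and 10.07 after O3. The O3 arrays were lower in both genotypes, with a wider gap in WT lungs. It fell 1.54-fold in WT lungs (-0.62 ± 0.13, adjusted p = 0.0155), and the difference in Nfkb1-/- lungs was -0.20 ± 0.13 (adjusted p = 0.387). The difference between those changes did not pass the test (0.42 ± 0.18, unadjusted p = 0.0377, adjusted p = 0.81). The WT call was lost without WT-Air replicate 1 (-0.57), WT-O3 replicate 2 (-0.65) or WT-O3 replicate 3 (-0.54), and a dimmer second probe set gave an averaged difference of 0.09 ± 0.27. Lama4 fell by 0.41 ± 0.09 in the average (adjusted p = 0.00867). The WT and averaged calls were lost with centring on medians (-0.55 and -0.19, or -0.55 and -0.32 with Nfkb1KO-Air replicate 1 left out) and with the mean of its probe sets (-0.35 and -0.16).

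Elastic fibre and microfibril genes had averaged differences below 0 in 6 of 6 measured members (5 of 6 with arrays centred on their medians), of which Fbln1, Mfap5 and Eln fell. Fbln1, encoding fibulin-1, a glycoprotein found on elastic fibres and in basement membranes, had the smallest adjusted p of the 40 genes. In WT lungs its signals were 11.48, 11.12 and 10.83 in air and 9.67, 9.58 and 9.78 after O3. In Nfkb1-/- lungs they were 10.70, 11.14 and 10.74 in air and 9.38, 9.41 and 9.48 after O3. Air and O3 arrays were separated by more than the whole range of either O3 group. The fall was 2.77-fold in WT (-1.47 ± 0.16, adjusted p = 0.000486) and 2.70-fold in Nfkb1-/- lungs (-1.43 ± 0.16, adjusted p = 0.000926). Fbln1 has a second probe set with nearly the same mean (10.26 against 10.27) and a lesser fall, 0.92 ± 0.16 averaged (adjusted p = 0.0026), and a further one with -0.51 ± 0.24 (adjusted p = 0.213). Leaving out WT-Air replicate 2 or 3, or Nfkb1KO-Air replicate 1, 2 or 3, made the second probe set stand for the gene, and the Nfkb1-/- difference was then -0.79, -0.79, -0.86, -0.69 and -0.83 with no call. That call was also lost with centring on medians (-1.05, or -0.72 with Nfkb1KO-Air replicate 1 left out) and without both arrays that stand apart (-0.86), while the WT and averaged calls were kept under each of these.

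Mfap5 encodes a glycoprotein of the microfibrils around elastin. It gave 10.40, 10.35 and 9.91 in WT-Air and 9.58, 9.34 and 9.65 in WT-O3 arrays. Nfkb1-/- lungs gave 9.89, 10.59 and 10.24 in air and 9.41, 9.63 and 9.65 after O3. The groups did not overlap within a genotype. Its falls of 1.62-fold in WT (-0.70 ± 0.18, adjusted p = 0.0404) and 1.60-fold in Nfkb1-/- lungs (-0.67 ± 0.18, adjusted p = 0.0429) were close to the threshold, and each call was kept in only 4 of 12 fits that left out 1 array, with differences of -0.85 to -0.60 and -0.85 to -0.50. The averaged fall of 0.69 ± 0.13 (adjusted p = 0.00329) was kept in 12 of 12. Centring on medians ended all 3 calls (-0.63 in WT, -0.30 in Nfkb1-/- lungs and -0.47 averaged), and those within a genotype were lost with the mean of its probe sets (-0.57 in each), without a trend in the spread, and with centring and Nfkb1KO-Air replicate 1 left out (-0.63 and -0.72).

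Eln encodes elastin, the recoil protein itself. Its signals were 11.17, 10.82 and 10.86 in WT-Air, 10.77, 10.47 and 10.79 in WT-O3, 11.31, 11.15 and 10.92 in Nfkb1KO-Air, and 10.52, 10.45 and 10.65 in Nfkb1KO-O3 arrays. O3 arrays lay below air arrays in each genotype. Eln fell in Nfkb1-/- lungs (-0.59 ± 0.13, adjusted p = 0.0207), beside -0.27 ± 0.13 in WT lungs (adjusted p = 0.268). The first of these calls was lost without Nfkb1KO-Air replicate 1 (-0.50), Nfkb1KO-O3 replicate 1 (-0.58) or Nfkb1KO-O3 replicate 2 (-0.54), and a second probe set of Eln gave an averaged difference of 0.10 ± 0.16. Eln fell by 0.43 ± 0.09 in the average (adjusted p = 0.00773). Both calls were lost with centring on medians (-0.16 and -0.17, or -0.35 and -0.27 with Nfkb1KO-Air replicate 1 left out) and with the mean of its probe sets (-0.29 and -0.16), and the first also without a trend and without both arrays that stand apart (-0.50). Fbln2, Fbln5 and Mfap4, further elastic fibre proteins, were not called, with averaged differences of -1.01 ± 0.33, -0.14 ± 0.12 and -0.38 ± 0.18. Fbln2 varied most within a group, from 7.69 to 9.98 in WT-Air.

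Lysyl oxidases, the enzymes that crosslink collagen and elastin, were not called by the probe sets used. Lox gave 10.31, 11.43 and 10.46 in WT-Air and 12.08, 11.57 and 11.35 in WT-O3 arrays. Nfkb1-/- arrays read 11.15, 10.59 and 10.97 in air and 11.23, 10.93 and 11.20 after O3. The WT groups overlapped because of WT-Air replicate 2. The difference in WT lungs was 0.94 ± 0.26 (adjusted p = 0.0599) and in Nfkb1-/- lungs 0.22 ± 0.26 (adjusted p = 0.69), and the difference between them was -0.72 ± 0.37 (adjusted p = 0.831). A second probe set of Lox rose in WT lungs by 1.53 ± 0.29 (adjusted p = 0.0139) and in the average by 1.20 ± 0.21 (adjusted p = 0.00265), so the reading of this gene depends on the probe set. Loxl1 had an averaged difference of -0.15 ± 0.09.

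Small leucine-rich proteoglycans, which coat collagen fibrils and govern their spacing, had averaged differences below 0 in 4 of 4 members (3 of 4 with arrays centred on their medians), and 1 was called. Ogn (osteoglycin) fell by 0.40 ± 0.11 (adjusted p = 0.0296), a call lost without WT-Air replicate 2 (-0.35), WT-O3 replicate 2 (-0.38) or 3 (-0.37), or Nfkb1KO-Air replicate 1 (-0.38) or 3 (-0.35). A second probe set of Ogn gave -0.12 ± 0.13. The call was lost as well with centring on medians (-0.13, or -0.26 with Nfkb1KO-Air replicate 1 left out), without a trend, with the mean of its probe sets (-0.26) and without both arrays that stand apart (-0.42). Ogn was also not called by the methods' 2-way analysis of variance after Benjamini-Hochberg (adjusted p = 0.0882). Dcn (decorin) had -0.33 ± 0.16, Lum (lumican) -0.44 ± 0.27 and Bgn (biglycan) -0.02 ± 0.06. Biglycan was the steadiest of the group, from 13.36 to 13.75 over all 12 arrays, and lumican the least steady, from 7.93 to 9.80.

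Among fibronectin and the matricellular genes, Tnc and Fn1 rose, Thbs3 and Sbspon fell, and Sparc, Sparcl1, Postn, Thbs2 and Mgp did not pass the test. Tnc encodes tenascin C, an anti-adhesive glycoprotein made at sites of injury and repair, and its promoter window is printed above. In WT lungs it gave 9.23, 8.64 and 8.92 in air and 10.84, 10.78 and 10.90 after O3. In Nfkb1-/- lungs it gave 7.56, 8.68 and 8.41 in air and 9.83, 9.58 and 10.68 after O3. All O3 arrays lay above all air arrays, and WT-O3 was the tightest group. The rise was 3.76-fold in WT (1.91 ± 0.30, adjusted p = 0.00419) and 3.52-fold in Nfkb1-/- lungs (1.81 ± 0.30, adjusted p = 0.00528). Both calls were kept without any 1 array, and a second, dim probe set rose too (3.35 ± 0.56 averaged, adjusted p = 0.00234). Fn1 (fibronectin), the adhesive glycoprotein on which many matrix fibres assemble, rose by 0.34 ± 0.10 in the average (adjusted p = 0.0402), a call kept in 3 of 12 fits without 1 array, with differences of 0.26 to 0.40. It was lost too with centring on medians (0.61), without a trend, with the mean of its probe sets (0.37) and without both arrays that stand apart (0.25). Fn1 was also not called by the methods' 2-way analysis of variance after Benjamini-Hochberg (adjusted p = 0.102).

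Thbs3 encodes a thrombospondin of the pentameric kind, a secreted calcium-binding matrix protein. It gave 10.25, 10.26 and 10.13 in WT-Air and 8.37, 8.26 and 8.63 in WT-O3 arrays. Nfkb1-/- lungs gave 8.82, 10.04 and 9.85 in air and 8.17, 7.76 and 8.17 after O3. Nfkb1KO-Air replicate 1, the array that stands apart, was lower than the other air arrays by over 1 log2 unit, yet higher than every O3 array. Thbs3 was 3.47-fold lower with O3 in WT (-1.79 ± 0.26, adjusted p = 0.0028) and 2.89-fold lower in Nfkb1-/- lungs (-1.53 ± 0.26, adjusted p = 0.00567), and both calls were kept without any 1 array. With arrays centred on their medians the Nfkb1-/- difference was -1.28 with no call.

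Sbspon, which encodes a secreted protein with somatomedin B and thrombospondin repeats, had the largest fall of the genes averaged over genotypes. Its signals in WT lungs were 9.47, 8.35 and 8.76 in air and 7.68, 6.48 and 6.45 after O3. Nfkb1-/- arrays had 8.56, 9.60 and 9.46 in air and 6.81, 7.68 and 7.09 after O3. The O3 arrays lay below all air arrays, with 1 array of each O3 group near 7.68. It was 3.97-fold lower in WT (-1.99 ± 0.40, adjusted p = 0.0142) and 4.04-fold lower in Nfkb1-/- lungs (-2.01 ± 0.40, adjusted p = 0.0122). The WT call was lost without WT-Air replicate 1 (-1.68), WT-O3 replicate 2 (-1.79) or 3 (-1.78), and the Nfkb1-/- call without Nfkb1KO-O3 replicate 1 (-1.82). Centring on medians (-1.98, adjusted p = 0.0567), no trend in the spread (adjusted p = 0.0504) and the mean of its probe sets (-1.67) also ended the WT call. A second probe set fell in the average by 1.45 ± 0.31 (adjusted p = 0.00932). The uncalled matricellular genes had averaged differences between -0.34 ± 0.36 (Thbs2) and 0.09 ± 0.07 (Mgp, an inhibitor of calcification).

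Pdgfra, the receptor that marks many lung fibroblasts, was not called. Its signals were 12.14, 12.60 and 12.31 in WT-Air and 12.67, 12.58 and 12.40 in WT-O3 arrays, and 12.17, 11.85 and 12.29 and 12.41, 12.16 and 12.25 in the Nfkb1-/- groups. Air and O3 arrays overlapped in both genotypes. The averaged difference was 0.18 ± 0.10 (adjusted p = 0.235), another probe set gave 0.29 ± 0.16, and 1 dimmer probe set of the gene rose (0.71 ± 0.13, adjusted p = 0.00459).

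**Figure D3:**
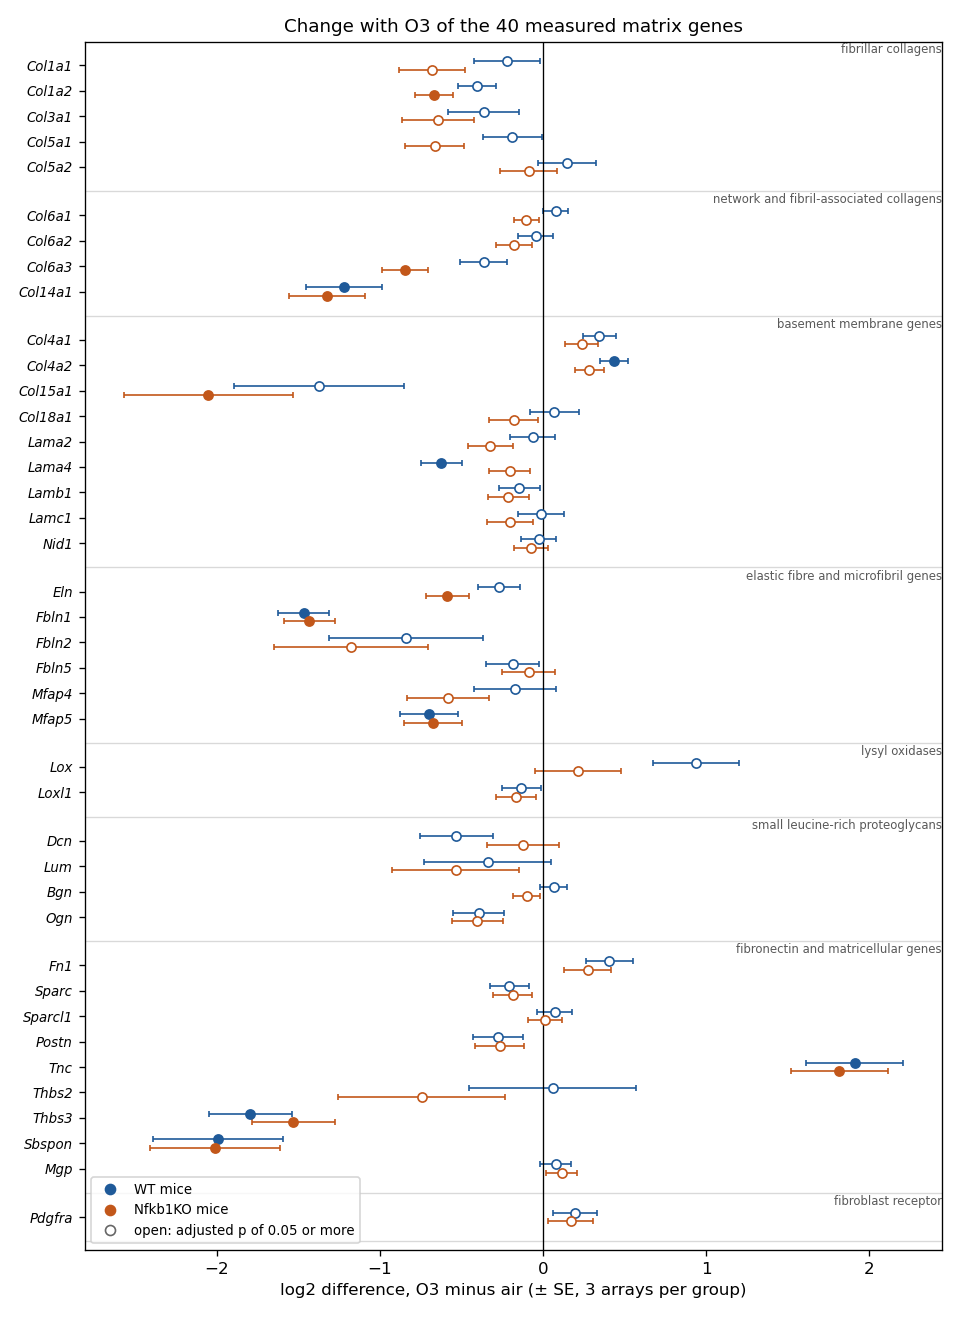
Log2 difference between O3 and air (horizontal axis, ± SE, 3 arrays per group) for the 40 measured matrix genes by role, in WT (blue) and Nfkb1-/- (orange) lungs; filled points passed the test at an adjusted p under 0.05. Tnc lies far to the right at 1.91 and 1.81, and Sbspon, Thbs3, Col15a1, Col14a1 and Fbln1 lie left of -1 in both genotypes.

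In air, no matrix gene differed between the genotypes in the test (0 of 40, beside 0.342% of all genes, 0.256% higher and 0.0854% lower). At an unadjusted p under 0.05 there were 6 of 40, beside 11.3% of all genes. The methods' t-test gave 2 lower and 0 higher at the same unadjusted threshold, counts not set beside all genes. The median difference, Nfkb1-/- minus WT, was -0.13, and 31 of the 40 lay below 0, beside 51.5% of all genes (37 of 40 with arrays centred on their medians, where 33 lay below the median of all genes). Fbln5, which helps to assemble elastic fibres, had -0.62 ± 0.16 (adjusted p = 0.156), with signals of 11.72, 11.71 and 11.51 in WT and 10.71, 11.12 and 11.24 in Nfkb1-/- lungs. Col6a3 had -0.44 ± 0.14 (adjusted p = 0.261) and Tnc -0.71 ± 0.30 (adjusted p = 0.388). Nfkb1KO-Air replicate 1 was the lowest of its group for each of these 3 genes.

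After O3, 1 matrix gene differed between the genotypes: Col6a3 was 1.89-fold lower in Nfkb1-/- lungs (-0.92 ± 0.14, adjusted p = 0.00894). That was 1 of 40 genes, beside 0.723% of all genes (0.552% higher and 0.171% lower). The call was kept in 12 of 12 fits that left out 1 array, with differences of -1.04 to -0.74. Nfkb1KO-O3 replicate 2 gave the lowest value, 10.28, and the difference without it was -0.74. It was not called with arrays centred on their medians, without a trend in the spread, or by the methods' t-test after Benjamini-Hochberg. Without Nfkb1KO-O3 replicate 3, Col5a1 was called lower as well (-0.91 ± 0.17, adjusted p = 0.049). Array weights gave 6 genes lower in place of 1, and leaving out both arrays that stand apart gave 2. These counts are not set beside the share of all genes called under the same settings. The median difference was -0.31, beside 0.00 over all genes, and 33 of 40 lay below 0, beside 49.5% of all genes (31 of 40 with arrays centred on their medians). Fibrillar collagens were lower throughout the group, with differences of -0.72 to -0.42 in 5 of 5 members. None of them passed after adjustment, although 5 of 5 had an unadjusted p under 0.05. Nfkb1KO-O3 replicate 2 was the lowest of its group for each of these 5 genes. Of all 40 genes, 19 had an unadjusted p under 0.05, beside 9.43% of all genes. Type IV collagen chains, which had risen with O3, were -0.30 ± 0.10 (Col4a1) and -0.28 ± 0.09 (Col4a2), with adjusted p of 0.286 and 0.238. In this comparison both genotypes are the O3 groups already used above.

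**Figure D4:**
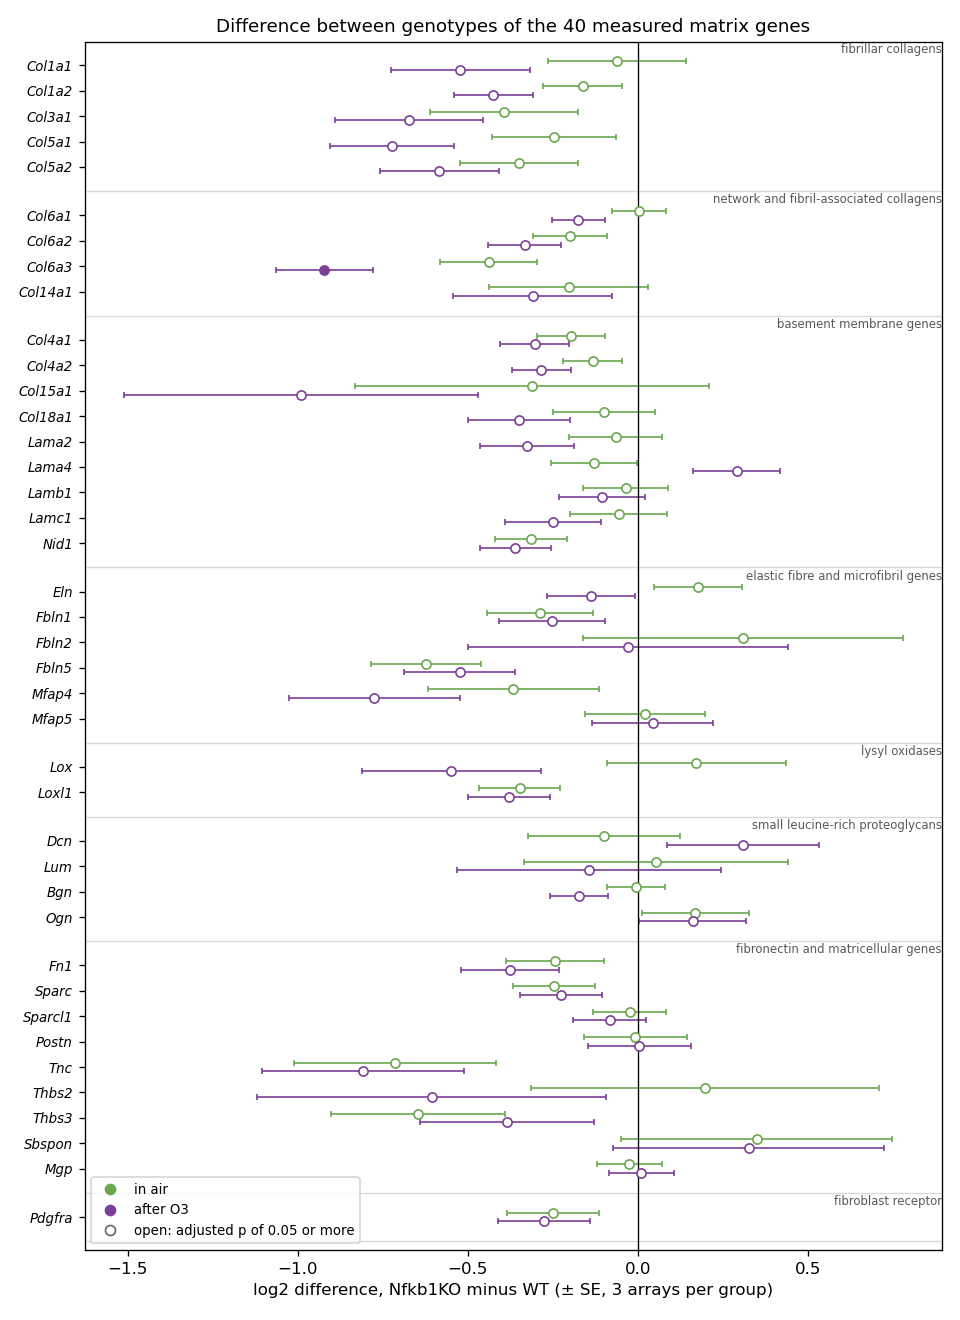
Log2 difference between Nfkb1-/- and WT lungs (horizontal axis, ± SE, 3 arrays per group) for the 40 measured matrix genes by role, in air (green) and after O3 (purple); filled points passed the test at an adjusted p under 0.05. Col6a3 after O3, at -0.92, is the 1 filled point, and most points lie left of 0 in both conditions.

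Whether the change with O3 depended on genotype was tested as an interaction, the O3 change in Nfkb1-/- minus that in WT lungs. It was called for 0 of the 40 genes, beside 0.0342% of all genes, and 2 genes had an unadjusted p under 0.05, beside 6.06%. Those were Col6a3 (-0.48 ± 0.20, unadjusted p = 0.0329) and Lama4, given above. Probe sets not used for the counts could differ more. Those of Col1a1 and Col5a1 quoted above had interactions of -0.79 ± 0.20 (adjusted p = 0.728) and -0.77 ± 0.20 (adjusted p = 0.803). In the other direction, a dim one of Lamb1 had 2.31 ± 1.02 (adjusted p = 0.933). None of these was called. The methods' 2-way analysis of variance gave 1 gene at an unadjusted p under 0.05 and 0 after adjustment, counts not set beside all genes. The median interaction was -0.13, beside 0.01 over all genes (0.23 beside 0.25 with arrays centred on their medians), and 31 of the 40 were below 0, beside 48.5%. That count was 9 of 40 with arrays centred on their medians and 23 of 40 with the deposited scaling alone, and in both 20 of the 40 lay below the median of all genes. A gene called with O3 in 1 genotype alone is therefore not shown to have changed differently in the other.

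The enzymes, inhibitors and partners of the matrix were read from 8 further lists, with 126 of 133 genes measured. These lists and the cell type markers below were also chosen with earlier results of these data known. Their calls were not rerun under the alternatives applied to the 40 genes. With O3 averaged over genotypes, 21 of the 126 rose and 30 fell, a share of 40.5% beside 15.2% of all genes. In WT lungs 12 rose and 12 fell (19.0% beside 5.40% of all genes), and in Nfkb1-/- lungs 9 rose and 16 fell (19.8% beside 6.18%). The share of each list given next is for the average and stands beside the same 15.2%. Matrix proteases and their inhibitors held the largest rises. Of 22 measured, 6 rose and 4 fell in the average, 45.5% of the list (5 and 2 in WT, 3 and 3 in Nfkb1-/- lungs). Timp1, a secreted inhibitor of matrix metalloproteinases, went from 9.12, 9.10 and 8.68 to 12.05, 12.23 and 12.13 in WT and from 8.64, 9.31 and 9.04 to 11.61, 11.25 and 12.36 in Nfkb1-/- lungs. It rose by 3.17 ± 0.24 (adjusted p = 4.4e-05) and 2.74 ± 0.24 (adjusted p = 0.000249) on the log2 scale. Adamts4, a protease of aggregating proteoglycans, rose by 2.66 ± 0.33 in the average, and its relative Adamts5 fell by 0.80 ± 0.11.

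Other proteoglycans and matricellular genes also went both ways, with 5 of 19 higher and 7 lower in the average, 63.2% (4 and 4 in WT, 3 and 6 in Nfkb1-/- lungs). Thbs1, an activator of latent transforming growth factor beta, went from 10.005, 9.94 and 9.66 to 11.85, 12.13 and 11.72 in WT lungs. In Nfkb1-/- lungs it went from 9.73, 9.79 and 10.11 to 11.81, 11.63 and 12.17. Its averaged rise was 2.01 ± 0.11 on the log2 scale (adjusted p = 1.44e-06), whereas the thrombospondin gene Thbs3 fell. Igfbp3, which binds insulin-like growth factors, fell by 1.21 ± 0.10, and the injury-responsive Ccn2 rose by 0.93 ± 0.12. Of 14 measured genes of the TGF-beta pathway 28.6% were called, of which 2 rose (Tgfbr2, 0.34 ± 0.05, and Smad2, 0.49 ± 0.08) and 2 fell, among them the ligand gene Tgfb3 (-0.52 ± 0.10), while 1 and 1 were called in WT lungs and 1 and 0 in Nfkb1-/- lungs.

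Collagen biosynthesis genes had 1 higher and 3 lower of 18 in the average, 22.2% (0 and 3 in WT, 0 and 1 in Nfkb1-/- lungs). Serpinh1, the collagen chaperone HSP47, fell by 0.56 ± 0.09, the lysyl hydroxylase gene Plod1 by 0.52 ± 0.12 and Pcolce, an enhancer of procollagen processing, by 0.63 ± 0.15. Of 14 other collagens 2 rose and 4 fell in the average, 42.9% (1 and 0 in WT, 0 and 2 in Nfkb1-/- lungs). Col4a5, of the specialised type IV network, fell by 0.53 ± 0.09, Col16a1 fell by 0.50 ± 0.09, and Col12a1, a fibril-associated collagen, rose by 0.89 ± 0.19. Of 11 other elastic fibre genes 2 rose and 4 fell, 54.5% (1 and 2 in each genotype), led by falls of 0.71 ± 0.07 in Ltbp3 and 0.65 ± 0.08 in Ltbp4 and a rise of 0.57 ± 0.10 in Ltbp2, which encode latent TGF-beta binding proteins. Of 11 other laminins and basement membrane genes 1 rose (Lamb3, 0.44 ± 0.08) and 2 fell, 27.3% (0 and 0 in WT, 1 and 1 in Nfkb1-/- lungs), and of 17 matrix receptors 2 rose and 4 fell, 35.3% (0 and 0 in WT, 0 and 1 in Nfkb1-/- lungs), Ddr1 by 0.30 ± 0.06. None of the 126 was called in air, after O3 between genotypes, or in the interaction. There 27, 25 and 9 had an unadjusted p under 0.05, which is 21.4%, 19.8% and 7.14% beside 11.3%, 9.43% and 6.06% of all genes.

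Markers of several cell types moved in the same comparisons. Over all genes, 7.70% rose and 7.51% fell in the average, 5.40% were called in WT and 6.18% in Nfkb1-/- lungs. Of 12 fibroblast markers, Pdgfra among them, 5 fell and 0 rose in the average, 41.7% of the list (2 fell in WT, 3 in Nfkb1-/- lungs), led by Dpt (-0.74 ± 0.10, adjusted p = 0.000463) and Thy1 (-0.79 ± 0.11, adjusted p = 0.000523). Their summed signal was 31451 to 37333 in WT-Air, 29311 to 30407 in WT-O3, 29875 to 33920 in Nfkb1KO-Air and 22576 to 26611 in Nfkb1KO-O3. The air and O3 ranges did not overlap in either genotype, and Nfkb1KO-O3 was lowest. Of 9 smooth muscle and pericyte markers 4 fell in the average and in Nfkb1-/- lungs, 44.4% in each, and 0 in WT lungs, with summed signals of 18914 to 29051, 16787 to 21987, 25183 to 30873 and 15652 to 18042 in the same order of groups. Of 8 endothelial markers 3 fell in the average, 37.5% (1 in WT, 3 in Nfkb1-/- lungs), with sums of 32651 to 44887, 30479 to 32339, 32411 to 35960.3 and 23655 to 31705. Mesothelial markers had 2 of 6 lower and 1 higher in the average (50.0%), 3 lower and 1 higher in WT lungs and 0 called in Nfkb1-/- lungs, with sums of 17280 to 23168, 15185 to 19245, 13615 to 18279 and 17028 to 19104. Cartilage markers, which would accompany airway cartilage in the sample, summed to 230 to 641 over all arrays, and 1 of 8 fell in the average (12.5%, beside 15.2% of all genes called).

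Lung epithelial markers went mostly the other way. Of 9 markers 4 rose (Hopx, Epcam, Sftpa1 and Sftpb, by 0.16 to 0.34) and Foxj1, of ciliated cells, fell by 0.82 ± 0.17 in the average, 55.6% of the list, while 1 rose in WT lungs, and 1 rose and 1 fell in Nfkb1-/- lungs. Their summed signal was 145031 to 151720 in WT-Air, 155598 to 157258 in WT-O3, 132105 to 144027 in Nfkb1KO-Air and 152118 to 154287 in Nfkb1KO-O3, so that O3 arrays lay above air arrays in both genotypes. After quantile normalisation Scgb1a1 read the same 14.90 on all WT-Air arrays, WT-O3 replicate 3 and Nfkb1KO-O3 replicates 1 and 2. A difference in this bright gene among those arrays cannot be seen in the sums. Of 7 leukocyte markers Cd68 rose (0.58 ± 0.13) and Ptprc fell (-0.56 ± 0.16) in the average, 28.6%, with 0 called in WT and 1 higher in Nfkb1-/- lungs, and sums of 25243 to 28379.7, 23311 to 24936, 26265 to 26619 and 23935 to 26108. Skeletal muscle markers had 1 of 8 lower in the average, 12.5% beside 15.2% of all genes called. That gene was Ckm (-2.18 ± 0.59), and the sums were 1245 to 31790, 453 to 1014, 1196 to 1857 and 492 to 8411. Of 6 cardiac muscle markers 0 were called (limma, 1 at an unadjusted p under 0.05), with sums that overlapped widely, from 5687 to 87903 over all arrays. The part of these cells in the matrix results was not tested.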

How the data were processed

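Total RNA from left lung homogenates of 12 mice was hybridised to 1-colour (biotin) Affymetrix mouse arrays. The authors deposited 1 signal intensity per probe set on a linear scale, computed, per the submitters' processing notes, with MAS5 in Affymetrix Expression Console (versions not given in the sources used here). With 2% of values trimmed at each end, every deposited array had a mean near 500.002. Precision is limited by 3 arrays per group. Groups came from the sample labels.

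Signals below 1 were raised to 1, converted to log2 and brought to 1 common distribution over the 12 arrays (quantile normalisation) after 64 control probe sets were set aside. Probe sets above the 20th percentile in at least 1 array were kept (42559 of 45101), and those with exactly 1 symbol, updated through RefSeq (GRCm38.p6), gave 17569 genes, the brightest probe set standing for a gene. limma 3.58.1 (R 4.3.3) was fitted to all arrays with 1 mean per group and a mean-dependent spread (12.6 degrees of freedom with the prior). P-values were adjusted by Benjamini-Hochberg over all genes, separately over all probe sets where a second probe set is quoted, and called under 0.05. The smallest two-sided exact p for 3 against 3 arrays is 0.1, so single genes had no exact test. The procedure was tested on simulated data.

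The genes, the further lists and the cell type markers were chosen with earlier results of these data known. Values on each array were given for the 12 called genes with the smallest adjusted p and for the gene with the smallest p in each role group without a call. From the further lists, up to 3 called genes with the smallest adjusted p in a comparison were named. A few other genes were named after their values were seen. Alternatives to each choice are under the limits.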

Additional observations from a re-analysis of the deposited data

How the results depend on the processing

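All 36 calls of single matrix genes kept their direction under every alternative run: of 919 values, 747 were still called and 172 were not. For the unadjusted t-test and 2-way analysis of variance, still called meant an unadjusted p under 0.05. Fits without a trend, with the t-test, the 2-way analysis of variance, the groups compared alone or the replicate block kept the same group differences. Their directions were therefore fixed in advance. Counts of the 40 genes moved more. Centring arrays on their medians in place of quantile normalisation put the median of all genes at up to 0.25 (O3 in Nfkb1-/- lungs and the interaction) and at -0.20 between genotypes in air, where the 40 genes had -0.39. It left 0 genes lower between genotypes after O3, 1 higher and 2 lower with O3 in WT, 2 lower in Nfkb1-/- lungs, and 2 higher and 5 lower in the average. With Nfkb1KO-Air replicate 1 also left out, a choice made after seeing the data, 4 were lower in Nfkb1-/- lungs and 8 in the average. With the deposited scaling alone, 2 were higher in Nfkb1-/- lungs. Without a trend in the spread, 0 were lower between genotypes after O3, 1 was higher in WT lungs and 2 in the average. Averaging all probe sets of each gene, 3 were lower in WT lungs. Array weights gave 6 lower between genotypes after O3, 4 higher in WT and 2 higher in Nfkb1-/- lungs. Leaving out both arrays that stand apart gave 2 lower between genotypes after O3 and 2 higher in the average. The ordinary t-test at an unadjusted p under 0.05 gave 2 lower in air, 15 lower after O3 between genotypes and 3 higher with O3 in Nfkb1-/- lungs. After Benjamini-Hochberg it gave 0 lower after O3 between genotypes and 0 in both directions with O3 in each genotype. The methods' 2-way analysis of variance gave 1 higher interaction, unadjusted. The fit restricted to the groups compared gave no value for the average or the interaction. The counts are of the 40 genes and are not set beside the share of all genes called under the same alternative. A shift in calls over all genes is thus not told apart from one in the matrix genes. The cause of these shifts was not tested.

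Leaving out 1 array at a time gave 1 to 2 genes lower between genotypes after O3 (2 without Nfkb1KO-O3 replicate 3), 1 to 4 higher and 2 to 7 lower with O3 in WT lungs (2 without WT-O3 replicate 2, 4 higher without WT-Air replicate 2), 1 to 2 higher and 5 to 10 lower in Nfkb1-/- lungs (2 higher without Nfkb1KO-O3 replicate 2, 5 lower without Nfkb1KO-O3 replicate 1), and 3 to 4 higher and 10 to 14 lower in the average. It gave 0 in air and in the interaction. Calls over all genes moved too. With WT-O3 replicate 2 dropped, 292 of all genes were called in WT lungs, beside 949 on all arrays. Dropping Nfkb1KO-O3 replicate 1 gave 366 in Nfkb1-/- lungs, beside 1086. Those falls in the lower counts are not told apart from fewer calls over all genes. The raised counts named came with 953 (WT-Air replicate 2, WT lungs) and 682 (Nfkb1KO-O3 replicate 2, Nfkb1-/- lungs). Between genotypes after O3 the raised count came with 80, beside 127.

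Replicate numbers did not pair the mice: deviations of same-numbered arrays correlated at -0.17 to 0.11, and 0 of 12 arrays correlated best with its own number. With a replicate block, 2 genes were higher and 5 lower in WT, 1 and 8 in Nfkb1-/- lungs, 3 and 11 in the average and 1 lower after O3 between genotypes, all within 1.5 times the counts without it. The calls of Mfap5 in each genotype and of Col3a1, Col5a1 and Fn1 in the average were lost.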

Other observations

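Loxl2, a further lysyl oxidase, was kept out of the counts because its probe sets also carry the symbol Gm21451. The brighter of them had an averaged difference with O3 of -0.34 ± 0.13 (adjusted p = 0.115) and the dimmer -0.03 ± 0.25 (adjusted p = 0.956), so neither was called.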
